A study of Mus musculus with 3 samples.

Results

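The genes described here make leukotrienes and prostaglandins, lipid messengers built from arachidonic acid. They are Pla2g4a, which feeds both pathways, the 5-lipoxygenase arm (Alox5, Alox5ap, Lta4h and Ltc4s) and the cyclooxygenase arm (Ptgs1, Ptgs2 and Ptges3). These 8 genes were taken by symbol, with no threshold on their level. Of the 8, 7 were among the 11419 genes in the deposited tables. Ltc4s was not listed there, so its level is unknown.

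The samples were 3 libraries of messenger RNA from 1 sorted population, taken from the hind limb bone marrow of the inbred mouse strain C57BL/6. Its gate required Cd11b, F4/80 and CD169 and left out CX3CR1-positive cells. The labels gave no treatment, second genotype, control population or age. They do not say that the libraries are from separate mice, so p-values cover no more than the variation among these libraries, part or all of which may be technical.

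Cytosolic phospholipase A2 releases arachidonic acid from membrane phospholipids. In the 5-lipoxygenase arm the acid is presented by the membrane protein FLAP to 5-lipoxygenase, which makes leukotriene A4. Leukotriene A4 hydrolase turns this into LTB4, a strong attractant of neutrophils, whereas leukotriene C4 synthase joins it to glutathione and opens the cysteinyl leukotriene branch. In the cyclooxygenase arm PTGS1, made constitutively by many cells, and PTGS2, which many cells induce on stimulation, form PGH2, the parent of the prostaglandins and thromboxane.

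Levels are in CPM, counts of a gene per 1000000 reads that fell on listed genes. The libraries held 5150020 (replicate 1), 40149274 (replicate 2) and 37604930 (replicate 3) such reads, so low levels are least precise in replicate 1. The population was labelled as macrophages, but of 8 resident macrophage markers 3 were above 10 CPM, with a summed level of 119 to 147 CPM over the libraries, and Siglec1, the gene of CD169, was at 0.388 to 4.57 CPM. All 8 neutrophil markers, a list labelled late neutrophil, were above 10 CPM, with a summed level of 119714 to 133905 CPM. The granule genes Ngp (mean 55067 CPM), Ltf (28909), Camp (16571) and Lcn2 (14336) were the highest of them, and Cxcr2 (501) the lowest. The sum thus gives no stage of maturation. The cells are therefore called the sorted population here. In such bulk RNA, fewer cells of a type and less RNA per cell cannot be told apart.

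The bases just before the annotated start of Alox5, Ptgs1 and Ptgs2 are given from RefSeq (GRCm38.p6), 5′ to 3′ on the strand of the gene, because these genes encode the enzymes that open the arms, whose levels are compared further on. The last line gives a short stretch just after the annotated start of Ptgs2. Capitals mark matches, on either strand, to the letters GGGCGG (a GC box), CACGTG (an E-box), CGTCA (the shorter form of the cyclic AMP response element), GAGGAA (the core bound by PU.1), TATAA or CCAAT.
Alox5, chr6:116461179-116461353, minus strand: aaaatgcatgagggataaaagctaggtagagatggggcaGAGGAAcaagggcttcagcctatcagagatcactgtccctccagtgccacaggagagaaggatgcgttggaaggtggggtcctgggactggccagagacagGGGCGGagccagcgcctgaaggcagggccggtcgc
Ptgs1, chr2:36230251-36230425, plus strand: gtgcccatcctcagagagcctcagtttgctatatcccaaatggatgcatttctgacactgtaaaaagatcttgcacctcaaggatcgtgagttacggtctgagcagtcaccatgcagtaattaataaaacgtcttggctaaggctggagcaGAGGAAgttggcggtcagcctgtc
Ptgs2, chr1:150099856-150100030, plus strand: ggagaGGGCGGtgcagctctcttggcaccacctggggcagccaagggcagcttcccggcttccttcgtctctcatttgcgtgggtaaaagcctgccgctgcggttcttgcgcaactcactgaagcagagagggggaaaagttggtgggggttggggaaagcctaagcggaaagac
Ptgs2 after its start, chr1:150100034-150100062, plus strand: gtcaccactaCGTCACGTGgagtccgctt

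Of the 8 genes, 7 had a window of 300 bases in the RefSeq table, 250 before and 50 after the start. Alox5 held 1 GC box, 35 bases before its start, and 1 PU.1 core, and Ptgs1 held 1 PU.1 core, 24 bases before its start. Ptgs2 held 1 GC box, 170 bases before its start, a PU.1 core outside the stretch shown, and the CGTCA and CACGTG matches of the last line, which overlap by 2 bases. Over all 32851 windows of 300 bases, 35.7% held GGGCGG, 28.3% GAGGAA, 20.8% CGTCA, 7.15% CACGTG, 24.9% TATAA and 37.4% CCAAT. Among the members' windows the E-box letters were found in that of Ptgs2. A match describes the letters and is not evidence of binding.

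Per kb of exon, the listed genes of the 5-lipoxygenase arm lay at percentiles 97.7 to 99.5 of listed genes, those of the cyclooxygenase arm were lower, and Ptgs2 was the lowest and the least even between libraries. With limma on log2(CPM + 1), every gene was set against a level of 10 CPM, with p-values adjusted over 11123 genes by the method of Benjamini and Hochberg. A difference on that scale understates the difference of low genes. Each SE and p-value from limma is moderated, with the variance of a gene drawn towards the trend over all genes. The SE can therefore differ from the spread of that gene alone. Of the 7 members, 6 were called above 10 CPM and 1, Ptgs2, below (adjusted p under 0.05). Over all genes tested, 58.8% were called above and 28.3% below, and 85.7% of the 7 members were above. The median of the 7 members was 114 CPM, against 19.7 CPM over all listed genes, both not scaled for length.

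**Figure D1:**
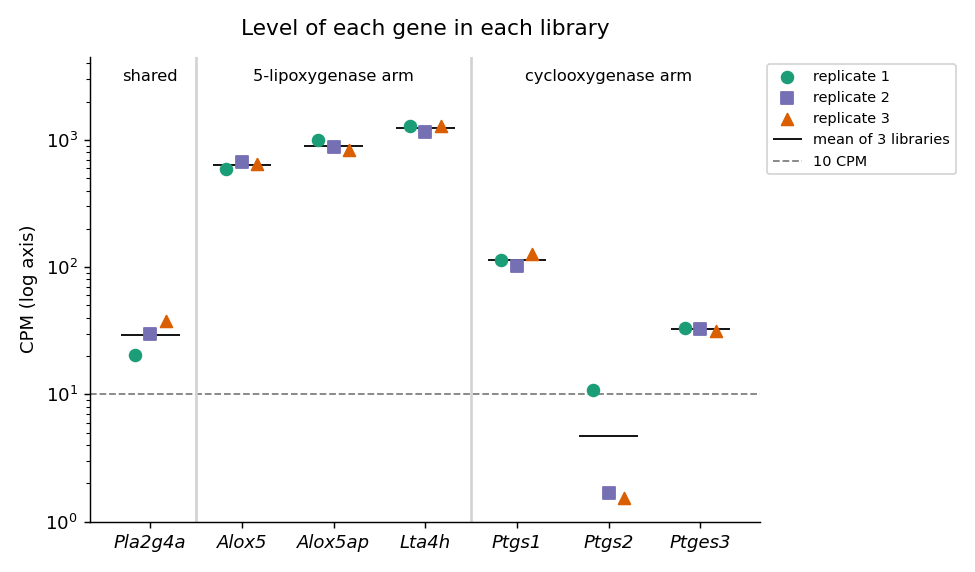
CPM of the 7 listed genes (log axis) in each of the 3 libraries, with points for libraries, a bar for their mean and a dashed line at 10 CPM. Alox5, Alox5ap and Lta4h lie between 590 and 1287 CPM in every library, Ptgs1 between 102 and 127, and Ptgs2 is at 10.9 CPM in replicate 1 but under 2 CPM in the others.

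Pla2g4a encodes cytosolic phospholipase A2 alpha, the enzyme that supplies both arms. Replicates 1, 2 and 3 gave 20.4, 29.7 and 37.9 CPM, with 105, 1193 and 1425 reads. Replicate 1 was the lowest and replicate 3 the highest, and the 3 exact Poisson 95% intervals (16.7 to 24.7, 28.1 to 31.4 and 36.0 to 39.9 CPM) did not overlap. No molecular identifiers are described, so intervals and limits from counts cover counting error alone. The mean of 29.3 ± 8.76 CPM (SD, n = 3) exceeded 10 CPM by 1.42 on the log2(CPM + 1) scale (SE 0.18; adjusted p = 1.68e-07 in limma). The gene (ENSMUSG00000056220) lies on chromosome 1 of GRCm38 from 149829618 to 149961290 on the minus strand, 138741 bases from Ptgs2.

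Alox5 encodes 5-lipoxygenase, the enzyme that commits arachidonic acid to leukotrienes. It was measured at 590, 668 and 644 CPM in replicates 1, 2 and 3, on 3036, 26820 and 24210 reads. The highest library exceeded the lowest by a factor of 1.13. The mean was 634 ± 40.2 CPM (SD, n = 3), which exceeded 10 CPM by 5.85 on the log2(CPM + 1) scale (SE 0.10; adjusted p = 7.46e-23 in limma), and per kb of exon Alox5 lay at percentile 97.7 of listed genes. The gene (ENSMUSG00000025701) spans 116410077 to 116461178 on chromosome 6, minus strand.

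Alox5ap encodes FLAP, the membrane protein that 5-lipoxygenase needs in cells. Replicates 1, 2 and 3 gave 997, 877 and 827 CPM on 5137, 35222 and 31099 reads. Replicate 1 was the highest, by a factor of 1.21 over replicate 3. The mean of 901 ± 87.6 CPM (SD, n = 3) exceeded 10 CPM by 6.35 on the log2(CPM + 1) scale (SE 0.10; adjusted p = 2.05e-23 in limma). Alox5ap (ENSMUSG00000060063, chromosome 5, 149264767 to 149288153, plus strand) shares 189 bases of its exons with the antisense gene Gm19719, which was at 6.95 ± 0.733 CPM, and the strand setting of the counting is not given in the sources used here, so the reads of this overlap cannot be told apart.

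Lta4h encodes the hydrolase that makes LTB4. It was at 1276, 1148 and 1287 CPM in replicates 1, 2 and 3, on 6570, 46105 and 48397 reads. Its libraries differed by a factor of at most 1.12. The mean was 1237 ± 77.0 CPM (SD, n = 3), which exceeded 10 CPM by 6.81 on the log2(CPM + 1) scale (SE 0.10; adjusted p = 5.87e-24 in limma), and per kb of exon Lta4h lay at percentile 98.3 of listed genes. Lta4h (ENSMUSG00000015889) lies on chromosome 10 from 93453411 to 93484875, plus strand, and 1 gene not listed in the files, Gm4854, has a transcript with 90.9% identity to it over 573 bases.

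Ptgs1 encodes the constitutive cyclooxygenase. The 3 libraries gave 114, 102 and 127 CPM, in the order of their numbers, on 586, 4093 and 4778 reads. Replicate 3 was the highest and replicate 2 the lowest, a factor of 1.25 apart. The mean was 114 ± 12.6 CPM (SD, n = 3), which exceeded 10 CPM by 3.38 on the log2(CPM + 1) scale (SE 0.12; adjusted p = 2.88e-17 in limma), and per kb of exon Ptgs1 lay at percentile 87.7 of listed genes. Ptgs1 (ENSMUSG00000047250) lies on chromosome 2 from 36230426 to 36252272, plus strand.

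Ptgs2 encodes the inducible cyclooxygenase. Replicate 1 gave 10.9 CPM, replicate 2 gave 1.69 and replicate 3 gave 1.54, on 56, 68 and 58 reads. Replicate 1 stood apart, 6.42-fold above replicate 2 and 7.05-fold above replicate 3, and its exact Poisson 95% interval of 8.21 to 14.1 CPM did not overlap theirs (1.32 to 2.15 and 1.17 to 1.99 CPM). The read numbers themselves were close, while replicates 2 and 3 held 7.80 and 7.30 times the total reads of replicate 1. The mean was 4.70 ± 5.34 CPM (SD, n = 3), and without replicate 1 it was 1.62 CPM.

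The call of Ptgs2 below 10 CPM depended on the test, the read filter and the level. On the log2(CPM + 1) scale its difference from 10 CPM was -1.34 (SE 0.35, limma adjusted p = 0.00134), although replicate 1 lay above the level. That moderated SE understates the spread of Ptgs2 itself, whose SD between libraries was 1.26 on this scale. With edgeR on the recovered reads the adjusted p was 0.0502, so by that test none of the 7 members was below (1 at an unadjusted p under 0.05) and 6 were above, against 25.1% and 59.9% of all genes. With no read filter the limma adjusted p was 0.0840, and over 10 alternatives the adjusted p of Ptgs2 ranged from 1.28e-07 to 0.216. Ptgs2 (ENSMUSG00000032487) lies on chromosome 1 from 150100031 to 150108227, plus strand.

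Ptges3 encodes the cytosolic prostaglandin E synthase, a protein also known as p23, a partner of the chaperone HSP90. It was at 33.2, 32.7 and 31.4 CPM in replicates 1, 2 and 3, on 171, 1312 and 1180 reads. The 3 exact Poisson 95% intervals overlapped, and the spread of its log2 values lay at percentile 1.78 of all genes tested. The mean was 32.4 ± 0.939 CPM (SD, n = 3), which exceeded 10 CPM by 1.60 on the log2(CPM + 1) scale (SE 0.15; adjusted p = 2.52e-09 in limma). Ptges3 (ENSMUSG00000071072, chromosome 10, 128058954 to 128077272, plus strand) has 2 near copies outside the listed genes, of which Ptges3-ps is identical to it over 480 bases, so its count is uncertain to the extent that the authors' counting dropped shared reads.

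Because longer transcripts yield more reads, the members were compared with each other per length. On the scale of CPM per kb of exon union, the order from highest to lowest was Alox5ap, Lta4h, Alox5, Ptgs1, Ptges3, Pla2g4a and Ptgs2. Alox5ap stood at 634 ± 61.7 CPM per kb, Lta4h at 203 ± 12.6 and Alox5 at 154 ± 9.79 (SD, n = 3). In the cyclooxygenase arm Ptgs1 stood at 29.4 ± 3.23, Ptges3 at 14.6 ± 0.424 and Ptgs2 at 1.03 ± 1.17 CPM per kb, and Pla2g4a at 4.59 ± 1.37. No neighbours in this order overlapped in their libraries, and each was in this order in 3 of 3 libraries. The smallest step was from Lta4h to Alox5, 1.31-fold, or 2.16-fold per kb of the longest transcript, which left the order as it was.

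**Figure D2:**
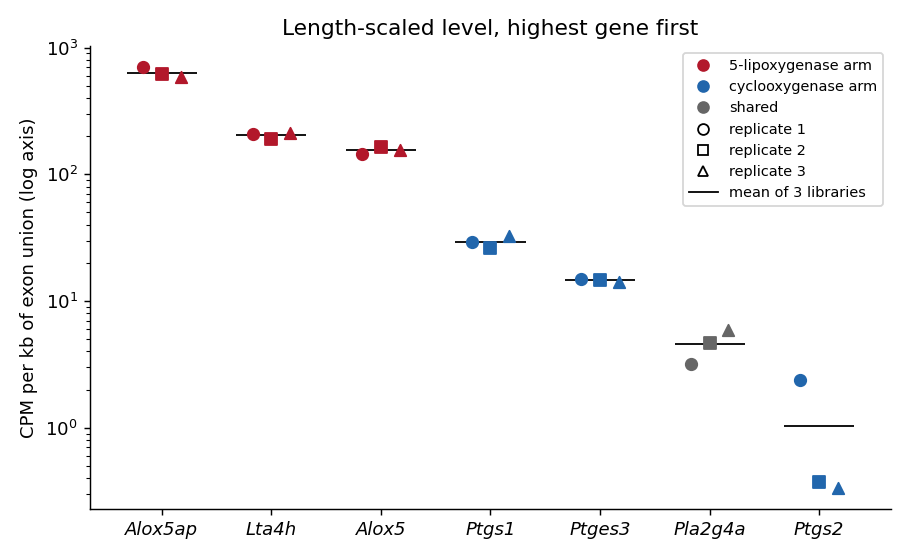
CPM per kb of exon union (log axis) of the 7 listed genes, highest first, with a symbol for each of the 3 libraries and a bar for the mean. The 3 genes of the 5-lipoxygenase arm, in red, stand between 144 and 702 CPM per kb, above every library of the cyclooxygenase genes in blue, the highest of which is 32.7.

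Summed over its listed genes, the 5-lipoxygenase arm was 22.6-fold above the cyclooxygenase arm in replicate 1, 23.4-fold in replicate 2 and 20.1-fold in replicate 3, per kb. The sums were 1055, 969 and 950 CPM per kb for Alox5, Alox5ap and Lta4h and 46.6, 41.4 and 47.2 for Ptgs1, Ptgs2 and Ptges3. The log2 ratio was 4.46 ± 0.11 (SD, n = 3) and positive in 3 of 3 libraries, with a spread far smaller than the ratio. No test was made of this sum, since it is a score over chosen genes. The size of the ratio depended on which genes were summed. Without Alox5ap, which is not an enzyme, it was 2.99 on the log2 scale, and for the medians of the arms 3.79. The missing Ltc4s could only add to the first arm.

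Between the enzymes that open the arms the difference was smaller. Per kb, Alox5 exceeded Ptgs1 and Ptgs2 together by 4.53-fold in replicate 1, 6.11-fold in replicate 2 and 4.74-fold in replicate 3 (log2 ratio 2.35 ± 0.23, SD, n = 3). Against Ptgs1 alone the ratio of (CPM per kb + 0.1) was 2.39 ± 0.21 on the log2 scale, and against Ptgs2 alone 7.60 ± 1.50. Each was positive in 3 of 3 libraries, and flipping signs over the libraries (exact permutation, two-sided) gave p = 0.25, the lowest value possible with 3. The spread of the Ptgs2 ratio came from replicate 1, where Alox5 was 60.5-fold above Ptgs2, against 440-fold in replicate 2 and 466-fold in replicate 3 per kb, and without replicate 1 the log2 ratio was 8.46. With a pseudocount of 1 in place of 0.1 it was 6.40, or 84.5-fold in place of 193-fold. Ptgs1 made up 92.5%, 98.6% and 99.0% of the summed level of both cyclooxygenases in replicates 1, 2 and 3. FLAP transcripts exceeded those of its partner enzyme in every library, with Alox5ap 4.89-fold, 3.80-fold and 3.71-fold above Alox5 per kb.

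Beyond the 8 named genes, 82 other genes of eicosanoid metabolism and response were listed by role. The tables held 55 of them, and of the 54 tested limma called 34 above 10 CPM and 16 below, leaving 4 without a call. Their share above, 63.0% of those tested, was near the 58.8% of all genes, and their median was 33.9 CPM. The counts by role below rest on 2 to 14 listed genes each, are to be read beside that 58.8%, and were not tested against it.

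**Figure D3:**
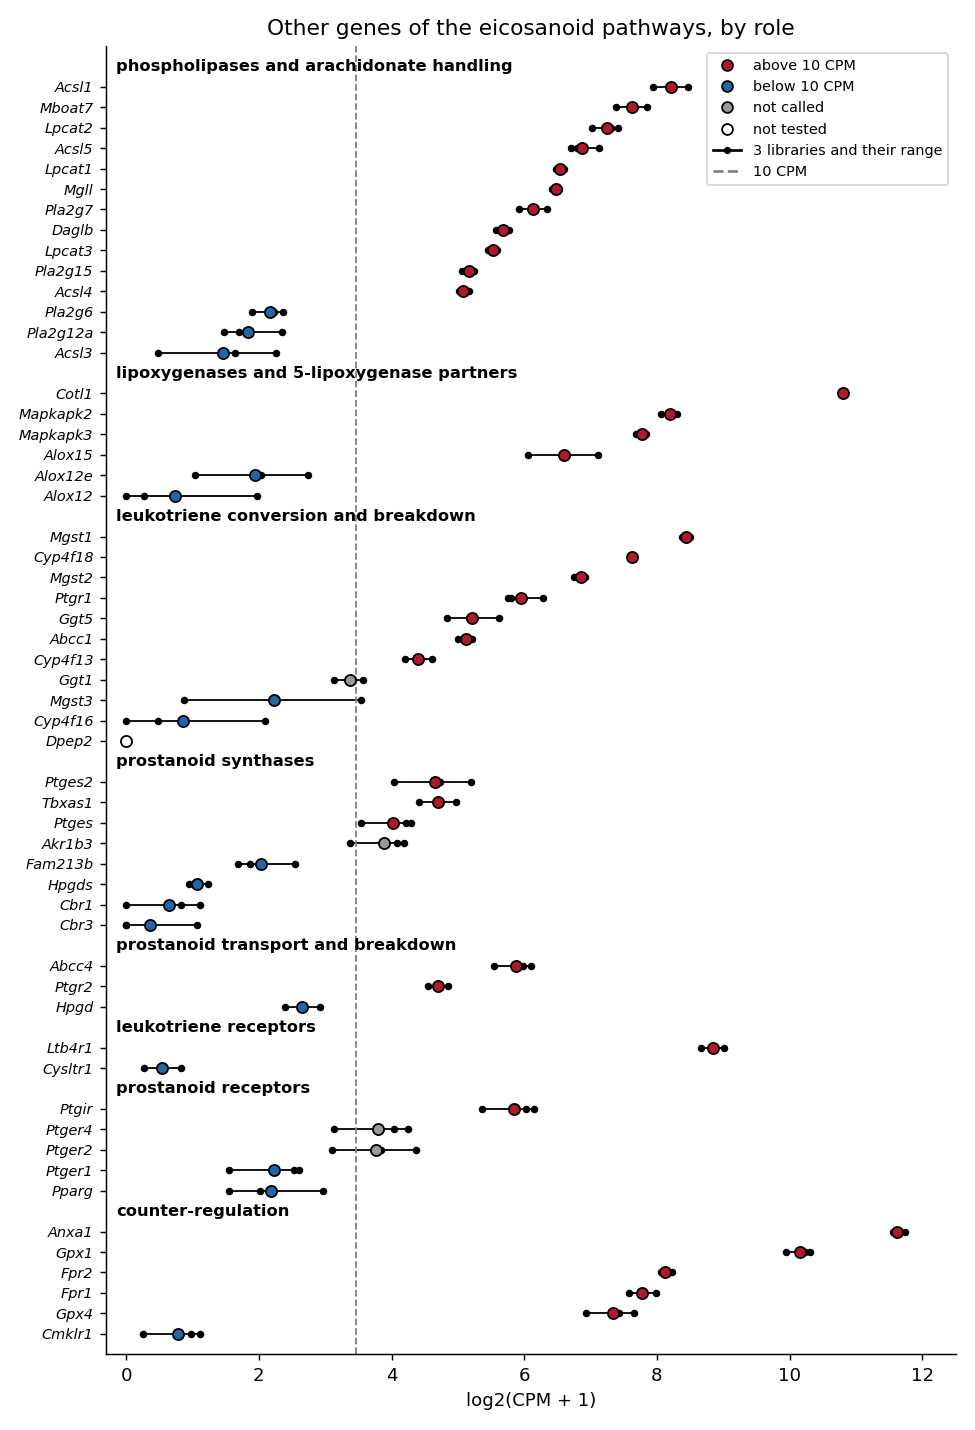
log2(CPM + 1) of the 55 listed genes of the wider eicosanoid list, grouped by role, with small points and a line for the 3 libraries and a large point for their mean, coloured by the limma call against 10 CPM (dashed line). Both the leukotriene and the prostanoid groups hold genes on either side of the line, such as Ltb4r1 (459 CPM) and Cysltr1 (0.467), or Ptgir (58.2) and Ptger1 (3.93).

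Of 14 listed genes that supply and recycle arachidonate, 11 were above 10 CPM and 3 below. Acsl1, which activates fatty acids with coenzyme A, was at 300.0 ± 54.2 CPM, Mboat7, which returns arachidonate to phosphatidylinositol, at 199 ± 32.2, and Lpcat2, which makes platelet-activating factor and its relatives, at 152 ± 21.1 (SD, n = 3). Acsl3 (2.09 ± 1.69) and the secreted phospholipase gene Pla2g12a (2.71 ± 1.21) were below. Secreted phospholipases Pla2g2d, Pla2g2e, Pla2g2f, Pla2g5 and Pla2g10 were not listed.

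Of 6 listed genes for other lipoxygenases and partners of 5-lipoxygenase, 4 were above 10 CPM and 2 below. Cotl1, a coactosin-like protein that binds 5-lipoxygenase, was at 1790 ± 28.9 CPM, and the kinases Mapkapk2 and Mapkapk3, which can phosphorylate it, were at 294 ± 26.1 and 218 ± 12.4 (SD, n = 3). Alox12 was below 10 CPM at 1.04 ± 1.63, a call that edgeR did not make from the recovered reads (adjusted p = 0.0843, range over alternatives 1.52e-08 to 0.0843), and Alox12e was below at 3.29 ± 2.34. Alox15, which is not taken by the rule for named genes and was chosen after its values were seen, was at 65.6, 137 and 98.9 CPM in replicates 1, 2 and 3, lowest in replicate 1 and highest in replicate 2. All 7 eosinophil markers were also lowest in replicate 1, but 6 of them were highest in replicate 3. Their part in the level of Alox15 was not tested.

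Genes that convert and break down leukotrienes were above 10 CPM in 7 of 11 cases, with 2 below, 1 not called and 1 not tested. Mgst1, a membrane glutathione transferase, was at 345 ± 15.0 CPM, Cyp4f18, a cytochrome that oxidises LTB4 in mouse neutrophils, at 197 ± 4.12, and Mgst2, a relative of leukotriene C4 synthase that can also make leukotriene C4, at 114 ± 7.13 (SD, n = 3). Per kb, Mgst2 stood at 30.9 ± 1.92, near Ptgs1, and Cyp4f18 at 106 ± 2.22, somewhat under Alox5. Cyp4f16 (1.23 ± 1.80) and Mgst3 (5.09 ± 5.06) were below. The call of Mgst3 was lost without replicate 3 (limma adjusted p = 0.0706, range over alternatives 5.15e-07 to 0.344). Dpep2, a dipeptidase that trims leukotriene D4, had 0 reads in all libraries, so levels up to 0.583, 0.0747 and 0.0798 CPM (3 reads) remain possible in replicates 1, 2 and 3.

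Of 8 listed synthases downstream of the cyclooxygenases, 3 were above 10 CPM, 4 below and 1 not called. Ptges2, a membrane-bound prostaglandin E synthase, was at 25.6 ± 10.2 CPM, Tbxas1, the thromboxane synthase, at 25.3 ± 5.05, and Ptges, the inducible prostaglandin E synthase, at 15.6 ± 4.32 (SD, n = 3). With replicate 2 left out, Ptges was not called (adjusted p = 0.187 in limma, range over alternatives 1.05e-06 to 0.187). Nor was it called with no read filter (limma adjusted p = 0.0721) or at a level of 20 CPM (0.0917). Per kb all 3 lay under Ptges3, at 5.06 ± 2.01, 2.79 ± 0.555 and 3.97 ± 1.10. Cbr3 (0.363 ± 0.629) and Cbr1 (0.646 ± 0.593), carbonyl reductases that act on prostaglandins, were below, and Ptgds and Ptgis, the synthases of prostaglandin D2 in brain and of prostacyclin, were not listed.

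Of the 3 listed genes of prostanoid transport and breakdown, the exporter Abcc4 (58.7 ± 11.6 CPM) and the reductase Ptgr2 (25.2 ± 2.76) were above 10 CPM. Hpgd, the dehydrogenase that inactivates prostaglandins, was below at 5.35 ± 1.17 (limma adjusted p = 0.00541). That call was lost without replicate 2 (limma adjusted p = 0.0834) and at a level of 5 CPM (0.812). The range over alternatives was 1.45e-06 to 0.812. All values are means ± SD of the 3 libraries.

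Among the listed leukotriene and prostanoid receptor genes, Ltb4r1 and Ptgir were called above 10 CPM, and Ltb4r1 was the more abundant per kb. Ltb4r1, the high-affinity LTB4 receptor, was at 459, 514 and 403 CPM in replicates 1, 2 and 3 (459 ± 55.4, SD, n = 3; limma adjusted p = 6.64e-22), and per kb it stood at 329 ± 39.8, above Lta4h and Alox5. Cysltr1, the receptor for cysteinyl leukotrienes, was below 10 CPM at 0.467 ± 0.291, and Ltb4r2, Cysltr2 and Oxgr1 were not listed. Of 5 listed prostanoid receptor genes, 1 was above, 2 below and 2 not called, and 5 more were not listed. Ptgir, the prostacyclin receptor, was at 58.2 ± 15.9 CPM (17.5 ± 4.76 per kb), while Ptger1 (3.93 ± 1.73) and the nuclear receptor gene Pparg (3.93 ± 2.54) were below. The prostaglandin E2 receptor genes Ptger2 (13.6 ± 6.10) and Ptger4 (13.7 ± 5.29) were not called.

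Of 6 genes that counter these pathways, 5 were above 10 CPM. Anxa1, a protein induced by glucocorticoids that restrains phospholipase A2, was at 3156 ± 217 CPM, and Fpr2, its receptor, at 278 ± 18.6. Gpx1, a peroxidase that removes the hydroperoxides lipoxygenases need for activity, was at 1152 ± 151 CPM (SD, n = 3). Cmklr1, a receptor for a lipid that resolves inflammation, was below at 0.779 ± 0.516.

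Between libraries, 5 of the 7 members varied little, and Ptgs2 and Pla2g4a varied most. The SD of log2(CPM + 1) was 0.09 for Alox5 and Lta4h, 0.14 for Alox5ap, 0.16 for Ptgs1, 0.04 for Ptges3, 0.43 for Pla2g4a and 1.26 for Ptgs2. By this spread Ptgs2 ranked 50 of 11123 genes, and Pla2g4a lay at percentile 75.7. A level at least 5-fold above each other library in replicate 1, as Ptgs2 had, was found in 0.381% of the 10487 genes that averaged 1 CPM or more.

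Some marker lists of other cell types differed between libraries in the direction of Ptgs2 or Pla2g4a, and others did not. Of 7 listed basophil and mast cell markers, 6 were highest in replicate 1, with a summed level of 1530 CPM there against 746 and 813 in replicates 2 and 3. Prss34 and Mcpt8 were over 5-fold higher there, whereas Hdc was lowest there (552, 609 and 675 CPM). As with Ptgs2, the read numbers of Prss34 (3069, 2992 and 3053) and Mcpt8 (1334, 1422 and 1407) were close between libraries. Those of Hdc were not (2841, 24439 and 25383). All 4 listed megakaryocyte and platelet markers were highest in replicate 1 (summed 58.6 CPM against 11.9 and 10.7), with Pf4 at 16 reads there and 0 in replicates 2 and 3. Most of that sum was Itga2b (44.9, 7.32 and 7.31 CPM, on 231, 294 and 275 reads), and Gp9 differed less (5.83, 4.23 and 1.76 CPM). All 4 primary granule markers (summed 6883, 5167 and 5842 CPM) and 3 of 5 erythroid markers (754, 419 and 397 CPM) were also highest in replicate 1. The summed resident macrophage (147, 119 and 147 CPM), monocyte (1194, 1097 and 998 CPM) and B lymphoid markers (230, 198 and 245 CPM) differed less between libraries. By single markers, 5 of 8, 2 of 5 and 4 of 6 of these were highest in replicate 1, and 2, 1 and 1 were lowest there. Siglec1 was among the latter (0.388, 3.66 and 4.57 CPM). For Pla2g4a, which was lowest in replicate 1 and highest in replicate 3, the eosinophil markers took the same order in their sum (526, 853 and 1262 CPM), with 7 of 7 lowest in replicate 1 and 6 of 7 highest in replicate 3. That order was not confined to eosinophil markers. Hdc, Siglec1 and, of the 8 neutrophil markers, Mmp8, Mmp9 and Cxcr2 (374, 462 and 667 CPM) took it too. The summed neutrophil markers fell in that order (133905, 126769 and 119714 CPM). The part of any of these cell types in the levels of Ptgs2 and Pla2g4a was not tested.

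**Figure D4:**
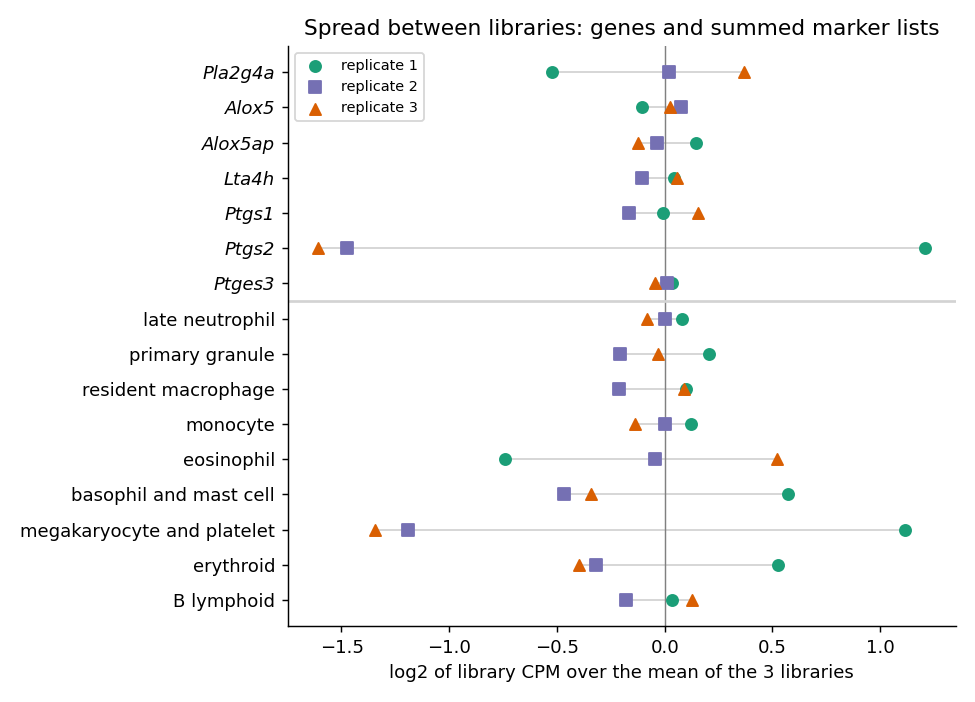
log2 of each library's CPM over the mean of the 3 libraries, for the 7 listed genes (upper rows) and the summed marker lists (lower rows). Ptgs2 and the megakaryocyte and platelet markers are spread widest, with replicate 1 at the right, and Pla2g4a and the eosinophil markers share the order of replicates 1, 2 and 3.

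The long non-coding RNA gene Ptgs2os2, near Ptgs2 on the opposite strand (chromosome 1, 150159043 to 150164948), did not follow it. It had 3, 103 and 167 reads in replicates 1, 2 and 3, or 0.583, 2.57 and 4.44 CPM, lowest where Ptgs2 was highest. Its value in replicate 1 is no more than a count of 0 allows, 0.583 CPM. This gene was chosen after its values were seen.

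For Alox5, Alox5ap, Ptgs1 and Ptgs2, the 2 genes of 11418 nearest in log2(CPM + 1) were identified by mean absolute difference over the 3 libraries. For Alox5 these were Arhgef1 (0.079) and Nfam1 (0.080), for Alox5ap Fth1 (0.046) and Prtn3 (0.080), for Ptgs1 Dhdds (0.020) and Fgfr1op2 (0.031), and for Ptgs2 Dph7 (0.12) and Rab3ip (0.18). Dph7 shared the high value of Ptgs2 in replicate 1, at 10.5, 1.92 and 1.89 CPM. With 3 libraries this likeness is mainly one of level, and it is given as a description.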

How the data were processed

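Messenger RNA of 3 libraries was read on a NextSeq500 from NEXTflex libraries, per the labels' protocols. The authors deposited CPM for each gene and library. Per the submitters' processing notes the tools were FastQC, STAR, featureCounts and edgeR, with builds mm10 and GRCh38. Versions, annotation, strand setting and gene filter are not given in the sources used here, and a missing gene is called not listed.

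Each gene was kept once (44 repeated entries left out), which left 11419 genes. In 100% of values of each library the CPM was a whole number of reads within 0.05 reads, and these reads were recovered. limma 3.58.1 in R 4.3.3 tested log2(CPM + 1) against log2 of 10 CPM plus the pseudocount 1, with trended moderation, two-sided, for 11123 genes with at least 10 reads over the libraries. edgeR 4.0.16 on recovered reads was an alternative. Because its own test function takes no design with an intercept alone, the quasi-likelihood F-test against the same level was computed from its fit outside that function, and it called 6660 genes above and 2787 below, where limma called 6539 and 3153. Both were also run on simulated reads with the same dispersion for every gene. That simulation does not cover a gene as uneven between libraries as Ptgs2.

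Lengths came from GENCODE M21 (GRCm38, the assembly of mm10), found for 99.9% of genes. Named genes were the 8 members, in each role up to 3 genes called above (highest means first) and up to 2 called below (lowest means first), the 2 nearest genes of each of 4 members, and markers. Members and lists were chosen with earlier results of these data known. Alternatives changed the pseudocount, filter, level, scaling, test, moderation, gene length and arm membership, or left out each replicate.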

Additional observations from a re-analysis of the deposited data

How the results depend on the processing

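The 6 members above 10 CPM kept that count under all 10 alternatives. The size of their adjusted p-values did depend on the processing. In limma the largest was 1.49e-05 for Alox5 (no read filter) and 0.0145 for Pla2g4a (level of 20 CPM). The count below, 1 by limma, was 0 with no read filter, with the level at 5 CPM and in edgeR on recovered reads. At an unadjusted p under 0.05 it was 0, 0 and 1. With the level at 5 CPM, 1870 of all genes and 9 of the wider list were below, in place of 3153 and 16. The log2 arm ratio of 4.46 was 4.20 without length scaling, 5.03 without Ptges3, 3.79 for medians and 2.99 without Alox5ap. It was positive in each of these, and was 4.42 to 4.52 when each replicate was left out in turn. For 39 named genes under the alternatives, 367 of 386 results kept direction and call, 17 lost the call and 2 changed sign, Ptges at a level of 20 CPM (-0.37) and Hpgd at 5 CPM (0.065). These 2 follow from the level itself. At 5 CPM the calls of Ptgs2, Alox12e, Mgst3, Ptger1 and Pparg were lost, and at 20 CPM those of Ptges2, Tbxas1 and Ptgr2. These losses too came with a change of the level, and the cause of the others was not tested. Replicate 1, with 5150020 reads, limits the precision of genes such as Ptgs2 (56 reads there). No paired analysis was possible because there is 1 group.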
